A study of Rattus norvegicus with 47 samples.

Results

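The genes described here are those of the cell division machinery on a rat whole-blood array: the cyclins, the kinases they activate, the Cdc proteins named from yeast cell division mutants, the mitotic kinases of the Aurora and Polo families, the spindle checkpoint kinases and the replicative helicase. The members were all probes whose symbol in the platform annotation starts with Cdc, Cdk, Ccna, Ccnb, Ccnd, Ccne, Aurk, Plk, Bub1 or Mcm2 to Mcm7, except those starting with Cdc42. They were 87 probes for 82 symbols, of 22523 probes on the array. The symbol alone chose them, so 16 probes belong to symbols of other function, such as the chaperone gene Cdc37 and the splicing genes Cdc40 and Cdc5l. RNA came from peripheral blood of adult Sprague Dawley rats, was depleted of globin messenger RNA and was hybridised at 1 array per rat. Rats of both sexes were exposed to predator scent and were classed by the submitters, from their behaviour, as showing an extreme or a minimal response. Control rats were not exposed and went through the same behavioural tests. The groups were 8 female extreme response, 8 female minimal response, 6 female control, 8 male extreme response, 8 male minimal response and 8 male control rats. The labels give no time between exposure and blood sampling.

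A dividing cell doubles its DNA and then pulls the copies apart, and cyclin-dependent kinases time both steps. Mcm2 to Mcm7 form the ring that unwinds DNA at replication forks, cyclin B with Cdk1 starts mitosis, and Cdc20 activates the anaphase-promoting complex, which ends it by marking cyclin B and securin for destruction. Most circulating blood cells do not divide. Transcripts of dividing cells can reach blood in young reticulocytes, which keep messenger RNA from their last divisions as erythroblasts in the marrow, and in activated lymphocytes and plasmablasts.

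Detection reached 5921 to 8770 probes per array over the 46 arrays analysed, and the array of a 7th female control rat, which held no usable signal, was left out. The 95th percentile of raw intensity ran from 205 to 914. Values are background-corrected and quantile-normalized log2 intensities, and tests were run on the probes detected (detection p-value below 0.05) on 7 or more arrays. This left 9416 probes, on all of which p-values were adjusted. Markers of the main blood cells were detected: 19 of 22 erythroid markers on the array passed the filter, as did 14 of 17 neutrophil markers and 11 of 12 B cell markers. Of the defining markers, the B cell factor Pax5, the plasmablast factors Irf4 and Prdm1 and the neutrophil granule gene Ltf were detected on 0 arrays. The labels do not say whether both sexes were kept and hybridised together, so sex and cohort cannot be told apart. In earlier work on these data female control replicates 1, 3, 4 and 5 stood apart from the other control females in immediate early and platelet transcripts. Calls that were lost without these 4 arrays are marked as such. Without them only control replicates 6 and 7 remain in that group. A call can then be lost through the small group alone, and what the 4 arrays contributed was not tested.

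Of the 87 probes, 50 (48 symbols) passed the detection filter, 24 of them on all 46 arrays, and 14 were detected on none. The replication helicase and licensing probes were the best covered, with 8 of 9 tested, and the cyclins were poorly covered, with 3 of 9. Several of the textbook genes of mitosis were at or near background. Ccna2, the cyclin of S phase and early mitosis, was detected on 0 arrays, Plk1, the polo-like kinase that drives mitotic entry, on 1, and the spindle checkpoint kinase genes Bub1 and Bub1b on 1 and 4. Ccnb1, the main mitotic cyclin, was detected on 4 arrays, of which 2 were female control arrays. Its log2 level ran from 4.43 to 5.45 in female extreme, 4.42 to 4.89 in female minimal and 4.37 to 5.38 in female control rats, and from 4.38 to 4.72 in male extreme, 4.41 to 5.17 in male minimal and 4.36 to 4.79 in male control rats. Group medians lay between 4.40 and 4.57 for Ccna2, 4.51 and 4.64 for Plk1, 4.45 and 4.69 for Bub1 and 4.37 and 4.56 for Bub1b. By contrast Cdc20 and Ccnb2, the second B-type cyclin, were detected on 46 of 46 arrays, as was Cdkn3, a phosphatase that removes the activating phosphate from cyclin-dependent kinases. Different probes carry different brightness for the same amount of RNA, so levels are compared between rats and not between genes.

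**Figure D1:**
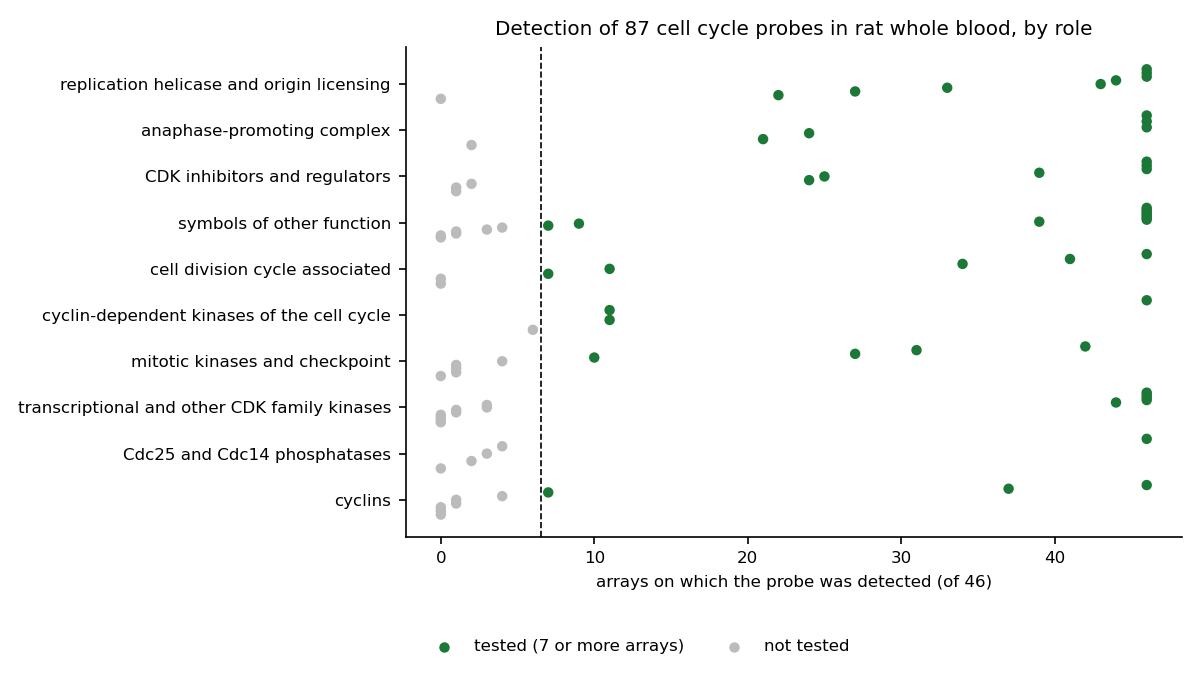
Number of arrays, of 46, on which each of the 87 probes was detected (horizontal axis), with 1 row per role and 1 point per probe; green points were tested and grey points were not, and the dashed line marks the filter of 7 arrays. At the ends of the axis lie 24 probes detected on all 46 arrays and 14 detected on none.

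The promoters of some of the genes that the results turn on are shown for the elements by which division genes are known to be timed. The cell cycle genes homology region (CHR) is bound by the DREAM and MuvB complexes in genes of mitosis, the CCAAT box by the factor NF-Y, and the E2F site by E2F factors in genes of replication. The windows, from RefSeq on build GRCr8, run from 250 bases before to 50 bases after the start of a transcript, and all lie 5′ to 3′ on the strand of the gene. Capitals mark the CHR (TTTGAA or TTCGAA), the CCAAT box (CCAAT) and the E2F site (TTTGGCGC, TTTCCCGC, TTTGCCGC or TTTCGCGC), each searched on both strands.
Cdc20, chr5:137255750-137256049, minus strand: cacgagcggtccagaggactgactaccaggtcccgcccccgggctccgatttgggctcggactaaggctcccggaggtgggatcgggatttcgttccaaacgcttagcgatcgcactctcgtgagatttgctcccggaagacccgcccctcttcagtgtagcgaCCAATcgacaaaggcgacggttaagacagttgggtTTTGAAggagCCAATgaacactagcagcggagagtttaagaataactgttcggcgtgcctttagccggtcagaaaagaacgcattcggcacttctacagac
Ccnb2, chr8:79981609-79981908, minus strand: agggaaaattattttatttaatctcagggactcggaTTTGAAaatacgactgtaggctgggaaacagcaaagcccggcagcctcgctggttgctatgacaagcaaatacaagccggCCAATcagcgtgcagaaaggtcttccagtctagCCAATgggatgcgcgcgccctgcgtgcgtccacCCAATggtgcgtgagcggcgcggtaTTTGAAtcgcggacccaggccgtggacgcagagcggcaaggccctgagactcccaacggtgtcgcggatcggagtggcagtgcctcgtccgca
Cdkn3, chr15:22502136-22502435, plus strand: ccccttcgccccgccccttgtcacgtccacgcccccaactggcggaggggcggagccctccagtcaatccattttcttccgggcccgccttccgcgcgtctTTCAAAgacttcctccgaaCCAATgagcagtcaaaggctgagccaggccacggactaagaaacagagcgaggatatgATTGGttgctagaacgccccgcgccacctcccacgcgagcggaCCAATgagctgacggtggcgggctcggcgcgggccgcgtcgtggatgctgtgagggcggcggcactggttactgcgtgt
Cdkl1, chr6:94005145-94005444, minus strand: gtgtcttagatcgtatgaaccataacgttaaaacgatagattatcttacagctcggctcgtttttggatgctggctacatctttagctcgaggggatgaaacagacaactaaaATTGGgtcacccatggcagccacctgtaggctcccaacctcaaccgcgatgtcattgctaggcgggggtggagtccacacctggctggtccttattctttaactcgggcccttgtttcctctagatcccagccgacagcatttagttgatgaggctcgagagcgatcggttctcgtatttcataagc
Mcm6, chr13:42404303-42404602, minus strand: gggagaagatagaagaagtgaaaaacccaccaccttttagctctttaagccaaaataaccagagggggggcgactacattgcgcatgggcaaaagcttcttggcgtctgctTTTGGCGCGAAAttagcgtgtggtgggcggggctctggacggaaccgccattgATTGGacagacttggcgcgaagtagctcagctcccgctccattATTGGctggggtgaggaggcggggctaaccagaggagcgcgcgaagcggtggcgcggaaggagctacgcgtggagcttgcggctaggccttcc
In Cdc20 a CHR begins 51 bases before the start, with CCAAT boxes at 86 and 41 bases before it. Ccnb2 has CCAAT boxes at 134, 101 and 68 bases and a CHR at 43 bases before the start. Mcm6 has 2 overlapping E2F sites, which begin 139 and 135 bases before the start, and Cdkl1 has a single CCAAT box and no CHR or E2F site. Not shown are the windows of Aurka, with no CHR, CCAAT box or E2F site, and of Cdc37, with 1 CCAAT box and no CHR or E2F site. Of 15 windows of members that act in mitosis (Aurka, Bub1, Bub1b, Ccnb1, Ccnb2, Cdc20, Cdc25c, Cdca3, Cdca5, Cdca8, Cdk1, Plk1, Plk4 and both windows of Cdkn3), 11 (73.3%) held a CHR, against 19.7% of all 33469 promoter windows of the same length. Of the 6 windows of the replication group (Cdc7, Mcm2, Mcm3, Mcm5, Mcm6 and Mcm7), 5 (83.3%) held an E2F site, against 2.14% of all windows. CCAAT boxes were in 10 of the 15 mitosis windows (66.7%), against 37.5% of all. The mitosis set was picked by hand. Among the members left out of it were Aurkc, Plk2, Cdc23, Cdc26, Cdc27, Cdc14a, Cdc14b and Ccnb3, without a CHR, and Cdc25b, with a CHR. Over all 74 member windows, 27.0% held a CHR, 51.4% a CCAAT box and 10.8% an E2F site. A match is a string of letters and does not show that a factor binds there. In total 66 of the 82 member genes had a promoter entry.

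The first comparison asked whether blood of exposed females differed from that of control females in these transcripts. A single member of 50 passed, against 6.36% of all probes (599 of 9416), and without the 4 control arrays that stood apart 1 of 9416 probes passed and no member did. That smaller fit kept only control replicates 6 and 7, and a group of that size can by itself cost calls. Of 9 platelet markers 8 rose and 0 fell in this comparison, and their part in the result was not tested. The member that passed was Cdkn1c, an inhibitor of cyclin-dependent kinases that restrains growth in the embryo. Its log2 level had a lowest value, median and highest value of 4.50, 4.84 and 5.27 in exposed females, against 4.69, 5.29 and 5.61 in control females. The groups overlapped, and 15 of 16 exposed rats lay below the control mean. Cdkn1c was detected on 5 of 6 control, 3 of 8 minimal response and 2 of 8 extreme response female arrays. Most exposed values thus lay near background, which limits what the size of its difference shows. The log2 difference was −0.37 ± 0.12 (SE, n = 16 and 6, limma adjusted p = 0.0442), but the call was lost in 9 of 12 alternative settings and, without the 4 control arrays that stood apart, the difference was −0.26 (limma adjusted p = 0.994). The next members by p-value did not pass: the inhibitor gene Cdkn1b differed by −0.51 ± 0.22 (adjusted p = 0.169), Mcm6 by 0.28 ± 0.12 (adjusted p = 0.182), Cdca2, a chromatin phosphatase subunit of late mitosis, by −0.30 ± 0.13 (adjusted p = 0.199) and Ccndbp1, which encodes a cyclin D binding protein, by −0.33 ± 0.15 (adjusted p = 0.201), all in limma. Over the 50 members the median difference was 0.04, against −0.01 over all probes.

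Cdc20, the member used as the marker of this gene set, did not pass in females. Its level ran from 8.17 through a median of 8.75 to 9.27 in extreme response, from 7.72 through 8.29 to 9.16 in minimal response and from 7.66 through 8.67 to 10.05 in control females. The 3 groups overlapped. The exposed minus control difference was −0.23 ± 0.22 (limma adjusted p = 0.597), and it changed sign without control replicate 4 (0.02) and under scaling to the 75th percentile (0.13). Taken by response class, limma called 0 of 50 members in extreme response against control females (6 at an unadjusted p under 0.05, or 12%, against 18.7% of all probes), where 5.36% of all probes passed, and 0 of 50 in minimal response against control females (7 unadjusted, or 14%, against 17.4%), where 5.19% passed. The members with the smallest p in extreme response females were Mcm3ap (−0.40 ± 0.14, adjusted p = 0.078), whose product binds Mcm3 and exports messenger RNA, Cdkn1c (−0.38 ± 0.13, adjusted p = 0.0863) and the helicase subunit gene Mcm3 (−0.52 ± 0.19, adjusted p = 0.09), then Cdk16 (0.49 ± 0.22, adjusted p = 0.215) and Cdkn1b (−0.53 ± 0.24, adjusted p = 0.225). In minimal response females they were Cdkn1c (−0.37 ± 0.13, adjusted p = 0.101), Ccndbp1 (−0.41 ± 0.17, adjusted p = 0.177), Aurka, the Aurora A kinase of the spindle poles (−0.50 ± 0.21, adjusted p = 0.18), the dim Cdca2 (adjusted p = 0.185) and Mcm6 (0.29 ± 0.14, adjusted p = 0.255). These comparisons and those of exposure share the control arrays.

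In males, 2 of 50 members passed for exposure, against 11.2% of all probes (1055 of 9416). Ccndbp1 rose. It ran from 11.30 through 11.98 to 12.52 in exposed males, against 10.69, 11.64 and 11.85 in control males, and 13 of 16 exposed rats lay above the control mean (0.44 ± 0.14, limma adjusted p = 0.028, n = 16 and 8). The call was lost in 4 of 12 alternative settings and without male control replicate 4, 6 or 8. Aurkaip1, whose product binds Aurora A and is also a subunit of the mitochondrial ribosome, fell. It ran from 5.11 through 5.95 to 6.53 in exposed males, against 5.90, 6.24 and 6.85 in control males (−0.44 ± 0.15, limma adjusted p = 0.0442), and its call was lost in 12 of 24 omissions of 1 array. Of the erythroid, neutrophil and B cell markers, 1 rose and 0 fell, 2 rose and 1 fell, and 0 rose and 0 fell in this comparison, and their part in the result was not tested. Another 3 members came next without passing in limma, Ccnb2 at 0.45 ± 0.17 (adjusted p = 0.0712), Cdk16 at −0.48 ± 0.18 (adjusted p = 0.077) and Cdca7, a chromatin gene induced at the start of S phase, at 0.44 ± 0.17 (adjusted p = 0.0791).

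By response class, 4 of 50 members passed in minimal response against control males, where 14.8% of all probes did. Among blood cell markers 0 erythroid and 0 B cell markers rose and 1 and 2 fell in this comparison, 2 neutrophil markers rose and 1 fell, and 1 T cell marker rose and 0 fell. Their part in the result was not tested. Cdk16, a kinase of the PCTAIRE branch that is most abundant in brain and testis, ran from 4.76 through 5.20 to 5.82 in minimal response males, against 4.99, 6.13 and 6.64 in control males, and all 8 minimal response rats lay below the control mean (−0.79 ± 0.21, 1.73-fold lower, limma adjusted p = 0.00728). This call held in 12 of 12 alternative settings, with differences of −0.79 to −0.31, and in 16 of 16 omissions, with −0.94 to −0.71. Cdk16 was detected on 6 of 8 minimal response and 8 of 8 control male arrays. Its lowest values thus lay near background, which limits what the fold shows. Aurkaip1 had a difference of −0.59 ± 0.17 (adjusted p = 0.0148), with values of 5.31, 5.61 and 6.24 as lowest, median and highest against the control values above. Cdca7 rose by 0.64 ± 0.19 (adjusted p = 0.0196). It ran from 5.21 through 5.78 to 6.29 in minimal response males, against 4.68, 5.02 and 5.65 in control males, and it lost its call without male minimal response replicate 1. A second Cdca7 probe was detected on 0 arrays. Cdk5, a kinase best known from neurons, had a difference of −0.40 ± 0.14 (adjusted p = 0.0415), with 6.17, 6.36 and 6.6 in minimal response against 6.52, 6.76 and 6.91 in control males, and lost its call in 11 of 16 omissions. Ccndbp1 came next at 0.43 ± 0.16 (adjusted p = 0.0537). All 5 adjusted p-values are from limma.

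In extreme response males limma called 0 of 50 members against control (3 at an unadjusted p under 0.05, or 6%, against 15.3% of all probes), and 0% of all probes passed. The member with the smallest p was Cdk1, the kinase that starts mitosis. It was detected on 5 of 8 extreme response, 2 of 8 minimal response and 0 of 8 control male arrays, and on 1 of 8 extreme response, 2 of 8 minimal response and 0 of 6 control female arrays. Its level ran from 4.66 through 4.94 to 5.53 in extreme response males, against 4.41, 4.57 and 4.84 in control males, where it was not above background on any array, so no fold is given (limma adjusted p = 0.107). The next were Ccnb2 at 0.58 ± 0.19 (adjusted p = 0.125), Ccndbp1 at 0.44 ± 0.16 (adjusted p = 0.144), Aurka at 0.37 ± 0.19 (adjusted p = 0.359) and Cdc123, a factor for assembly of a translation initiation complex, at 0.25 ± 0.13 (adjusted p = 0.366). Cdc20 ran from 6.85 through 7.63 to 7.76 in extreme response, from 6.85 through 7.20 to 7.76 in minimal response and from 6.99 through 7.49 to 8.31 in control males. The 3 ranges overlapped, and the differences from control in limma were −0.02 ± 0.23 (adjusted p = 0.976) in extreme response, −0.27 ± 0.23 (adjusted p = 0.477) in minimal response and −0.15 ± 0.20 (adjusted p = 0.71) in exposed males.

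**Figure D2:**
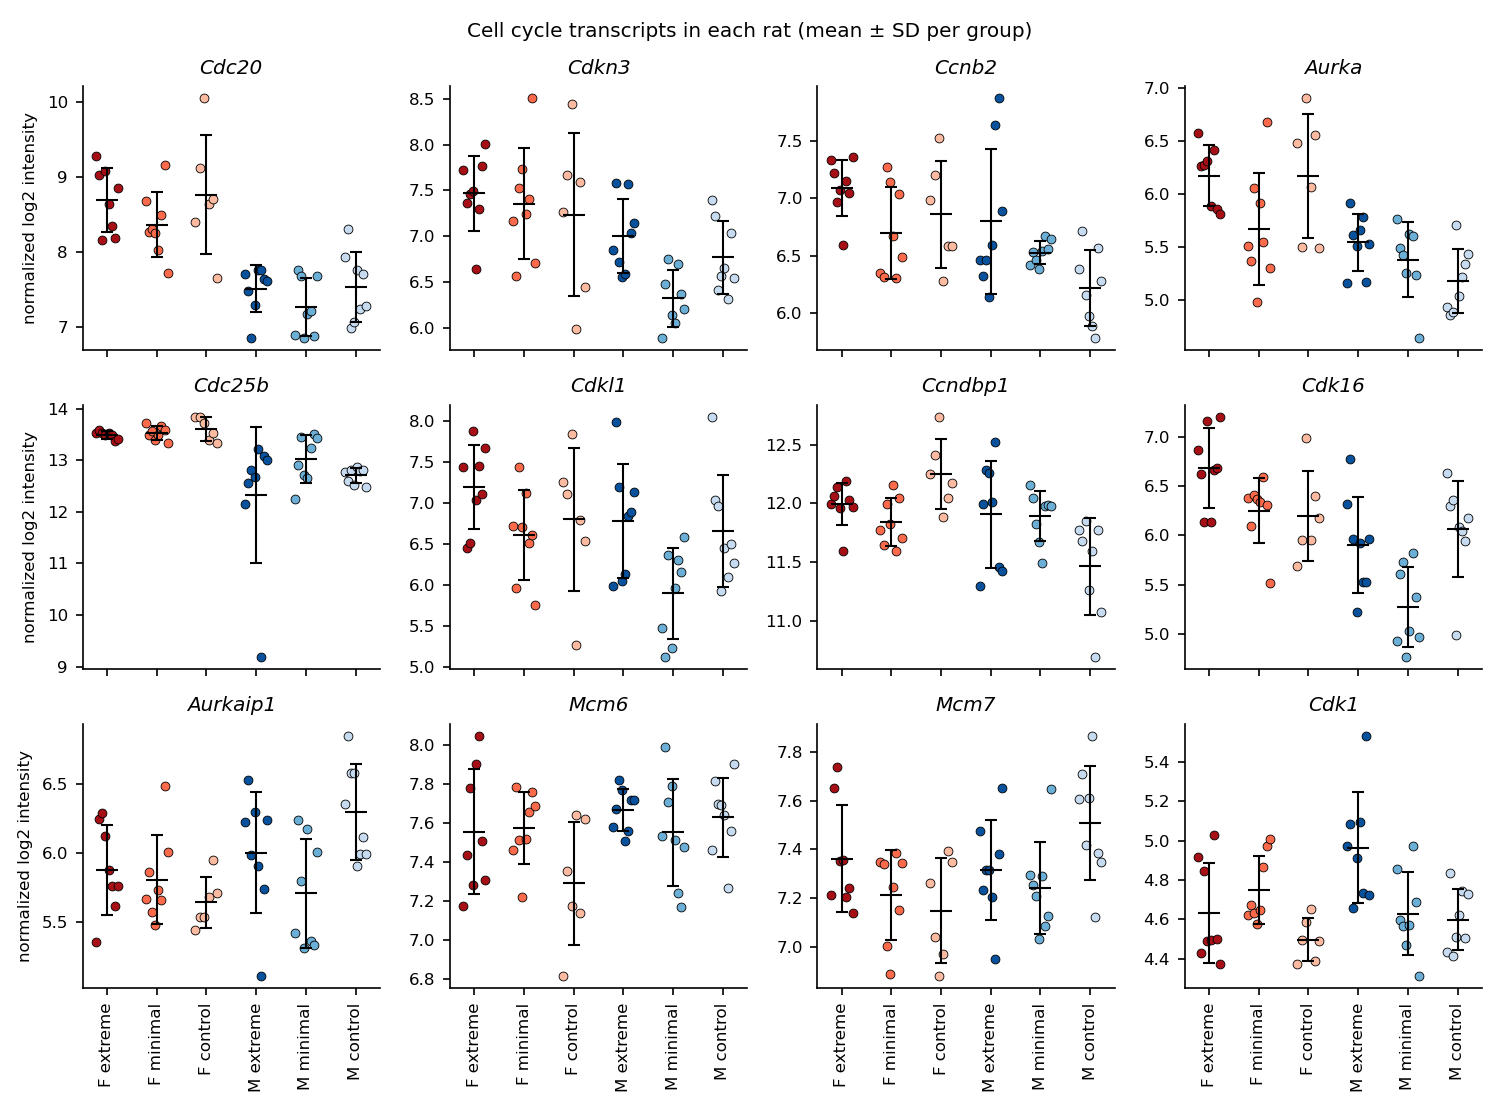
Normalized log2 intensity (vertical axes) of 12 cell cycle transcripts in each of 46 rats, by sex (F, M) and group; points are rats, horizontal marks are group means and bars are SD. All 22 females lie above the male mean of Cdc20, minimal response males sit low in Cdk16, and 1 extreme response male has a Cdc25b level of 9.19.

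Whether the difference between exposed and control rats itself differed between the sexes was tested as an interaction. Here 3 of 50 members passed, against 11.4% of all probes. Ccndbp1 was lower in exposed than in control females and higher in exposed than in control males, a difference between the sexes of −0.77 ± 0.20 (limma adjusted p = 0.00891). In females it ran from 11.60 through 11.98 to 12.19 in exposed rats, against 11.89, 12.21 and 12.74 in control rats, and 16 of 16 exposed rats lay below the control mean. Cdkn1b, an inhibitor that holds cells out of the cycle, gave −0.87 ± 0.29 (adjusted p = 0.0438) and Aurkaip1 gave 0.65 ± 0.22 (adjusted p = 0.0492). In Cdkn1b 15 of 16 exposed females lay below, and 13 of 16 exposed males above, their control means. Without the 4 female control arrays that stood apart, 0 of 50 members and 0 of all 9416 probes passed in limma, with values of −0.63 for Ccndbp1 (adjusted p = 0.43), −0.52 for Cdkn1b (adjusted p = 0.674) and 0.46 for Aurkaip1 (adjusted p = 0.633). All 3 kept their sign, in a fit with only replicates 6 and 7 as female controls. Cdk16 (0.75 ± 0.27, adjusted p = 0.0586) and Mcm7 (0.37 ± 0.14, adjusted p = 0.0863) came next, and Cdc20 gave −0.09 ± 0.29 (adjusted p = 0.895). Averaged over the sexes, limma called 0 of 50 members for exposure (4 at an unadjusted p under 0.05, or 8%, against 20% of all probes), against 6.47% of all probes. The 5 with the smallest p were Cdk1 (adjusted p = 0.0928), Cdca7 at 0.33 ± 0.13 (adjusted p = 0.111), Cdkn1c at −0.20 ± 0.08 (adjusted p = 0.136), Cdc123 at 0.19 ± 0.09 (adjusted p = 0.185) and Cdc37l1, a relative of the chaperone gene Cdc37 that was detected on 9 of the 46 arrays (adjusted p = 0.252). Cdc20 differed by −0.19 ± 0.15 (adjusted p = 0.502).

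Extreme and minimal responders were then set against each other, to ask about individual differences after the same exposure. In females limma called 0 of 50 members, against 0.34% of all probes, and in males 0 of 50, against 0.138%. At an unadjusted p under 0.05 there were 11 members (22%) in females, against 12.3% of all probes, and 9 (18%) in males, against 12.6%. In females the smallest p-values belonged to Aurka at 0.51 ± 0.19 (adjusted p = 0.244), Cdkn2aipnl at 0.39 ± 0.15 (adjusted p = 0.249), Cdc123 at 0.34 ± 0.13 (adjusted p = 0.256), Mcm3 at −0.42 ± 0.17 (adjusted p = 0.3) and 1 of 2 probes of Cdc16, a scaffold subunit of the anaphase-promoting complex, at 0.30 ± 0.13 (adjusted p = 0.315). Aurka ran from 5.81 through 6.27 to 6.58 in extreme response and from 4.98 through 5.53 to 6.68 in minimal response females. In males they belonged to Cdk16 at 0.63 ± 0.21 (adjusted p = 0.161), Cdk1 (adjusted p = 0.161), Cdkl1 at 0.88 ± 0.30 (adjusted p = 0.188), Cdkn3 at 0.68 ± 0.24 (adjusted p = 0.206) and Cdkn1c at −0.30 ± 0.12 (adjusted p = 0.273). Cdc20 differed by 0.33 ± 0.23 in females (adjusted p = 0.586) and 0.25 ± 0.23 in males (adjusted p = 0.715).

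Averaged over both sexes, 1 of 50 members passed, against 1.91% of all probes. It was Cdk16, higher in extreme than in minimal responders by 0.53 ± 0.15 (limma adjusted p = 0.0437). In females it ran from 6.13 through 6.68 to 7.20 in extreme response, against 5.52, 6.35 and 6.59 in minimal response rats, and in males from 5.22 through 5.94 to 6.77 in extreme response, against 4.76, 5.20 and 5.82 in minimal response rats. The classes overlapped in each sex, and 6 of 8 extreme response females and 7 of 8 extreme response males lay above the minimal response mean of their sex. The call was lost in 5 of 11 alternative settings and in 20 of 32 omissions of 1 array. Cdk16 was detected on 6 of 8 minimal response male arrays, so part of that group lay near background. Cdkl1, a relative of the cyclin-dependent kinases, came next at 0.74 ± 0.21 (adjusted p = 0.0579), then the transcription kinase gene Cdk13 at 0.33 ± 0.12 (adjusted p = 0.125), Aurka at 0.33 ± 0.14 (adjusted p = 0.186), Ccnb2 at 0.33 ± 0.14 (adjusted p = 0.187) and Cdc20 at 0.29 ± 0.16 (adjusted p = 0.371). The test of a difference between the sexes in this contrast called 0 of 50 in limma (2 at an unadjusted p under 0.05, or 4%, against 8.15% of all probes), against 0.0319% of all probes. Its 5 smallest p-values belonged to a Cdc16 probe (0.53 ± 0.18, adjusted p = 0.354), Cdk1 (adjusted p = 0.381), Cdc123, Cdkn2aipnl and Cdkn1c (adjusted p = 0.647 to 0.692), and Cdc20 gave 0.09 ± 0.32 (adjusted p = 0.97).

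**Figure D3:**
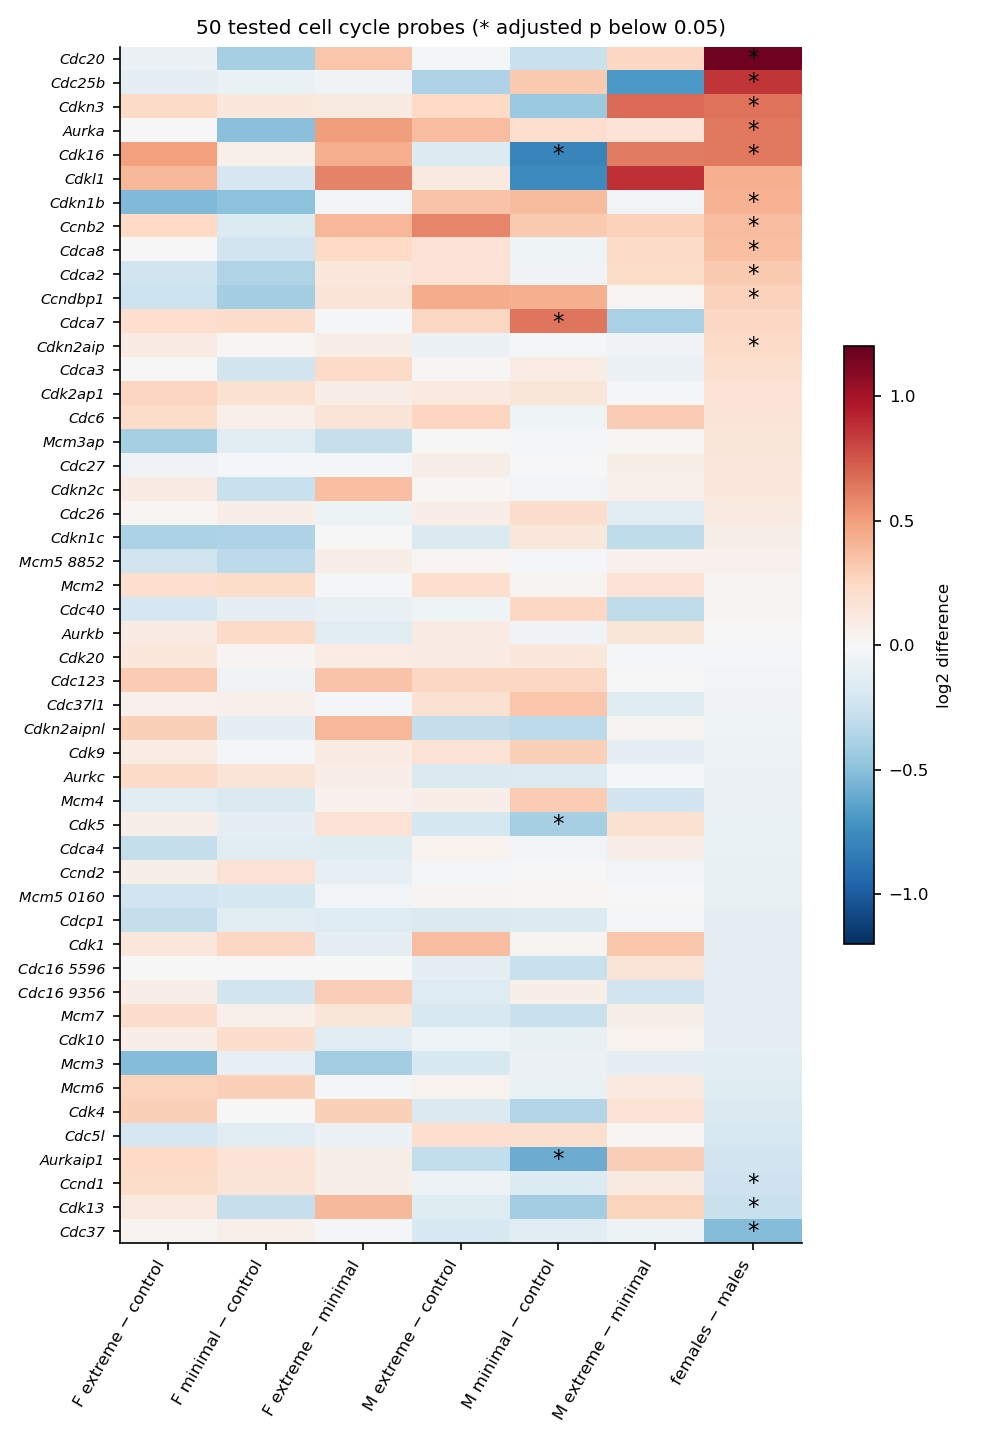
Log2 difference (colour) of the 50 tested probes (rows, ordered by the difference between the sexes) in 7 comparisons (columns; F, females, M, males); stars mark an adjusted p below 0.05. Stars are few in the exposure and response columns, where 4 stand in minimal response males, and 14 stand in the column of females against males.

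Females and males differed in more of these transcripts than exposed and control rats did, as was so of all probes. Over the 3 groups, 14 of 50 members passed (28%), against 34.1% of all probes (3212 of 9416), and 11 of the 14 were higher in females, where 15.3% of all probes were. Cdc20 ran from 7.66 through a median of 8.57 to 10.05 in 22 females, against 6.85, 7.55 and 8.31 in 24 males. All 22 females lay above the male mean and 14 lay above the highest male, and the difference was 1.17 ± 0.13 (2.25-fold, limma adjusted p = 3.5e-09). It was past the threshold in 11 of 11 alternative settings (0.58 to 1.18) and in 46 of 46 omissions of 1 array (1.08 to 1.24). Aurka differed by 0.64 ± 0.11 (1.55-fold, adjusted p = 1.58e-05). It ran from 4.98 through 5.98 to 6.91 in females, against 4.64, 5.43 and 5.92 in males. Cdc25b, the phosphatase that removes inhibitory phosphates from Cdk1, differed by 0.86 ± 0.17 (1.81-fold, adjusted p = 5.89e-05). In females it was tightly spread, from 13.33 through 13.52 to 13.84, against 9.19, 12.80 and 13.51 in males, where male extreme response replicate 6 held the lowest value and the next lay at 12.14. Omission of single arrays gave Cdc25b differences of 0.71 to 0.90, all past the threshold, but its call was lost in 2 of 11 alternative settings, with all 47 arrays (0.43, limma adjusted p = 0.485) and with the erythroid covariate described next (0.47, adjusted p = 0.201).

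Cdkn3 was higher by 0.65 ± 0.15 (adjusted p = 0.000354), with 6.00, 7.43 and 8.51 in females against 5.89, 6.63 and 7.58 in males. Ccnb2 was higher by 0.37 ± 0.11 (adjusted p = 0.00885), with 6.28, 7.01 and 7.53 in females against 5.77, 6.47 and 7.88 in males. Cdca8, which encodes borealin of the chromosomal passenger complex, was higher by 0.36 ± 0.10 (adjusted p = 0.003). Cdk16 (0.63 ± 0.12, adjusted p = 6.15e-05), Cdkn1b (0.42 ± 0.13, adjusted p = 0.0134) and Ccndbp1 (0.28 ± 0.09, adjusted p = 0.0171) were also higher. Cdk16 lies on the X chromosome, and the part of that in its difference was not tested. The last of the 11 were Cdca2 (adjusted p = 0.00239) and Cdkn2aip, whose product binds the tumour suppressor ARF (adjusted p = 0.00959). They were detected on 11 and 7 of the 46 arrays, with female medians of 4.85 and 4.73 against a male median of 4.56 for each, and no size is given because most arrays lay at background. The other 3 members were lower in females: the kinase chaperone gene Cdc37 (−0.52 ± 0.06, adjusted p = 7.54e-09, with 20 of 22 females below the lowest male), Cdk13 (−0.27 ± 0.10, adjusted p = 0.0289) and Ccnd1, the D-type cyclin of growth signalling (−0.25 ± 0.09, adjusted p = 0.0209). Ccnd1 was detected on 2 of 6 control, 6 of 8 minimal response and 5 of 8 extreme response female arrays, and on 8 of 8 in each male group. Part of the female values thus lay near background, which limits what the size of its difference shows, here and below. Without the 4 female control arrays that stood apart 22.7% of all probes passed, and 6 of these 14 calls were lost in limma: Ccnb2 (0.28, adjusted p = 0.12), Cdkn1b (0.30, adjusted p = 0.181), Ccndbp1 (0.23, adjusted p = 0.131), Ccnd1 (−0.23, adjusted p = 0.103), Cdca2 (adjusted p = 0.051) and Cdkn2aip (adjusted p = 0.139). All adjusted p-values here are from limma. All 8 replication helicase and licensing probes missed the threshold, with differences of −0.14 to 0.15, so none of Mcm2 to Mcm7 is among the 14.

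Blood cell markers moved with this comparison. Of 19 tested erythroid markers 8 were higher and 0 lower in females, among them the membrane skeleton gene Epb42 (0.80 ± 0.10, limma adjusted p = 5.85e-08) and the erythroid factor genes Gata1 (0.88 ± 0.12) and Klf1 (0.62 ± 0.10). Of 14 neutrophil markers 8 were lower, and of 11 B cell markers 6 were lower. The mean erythroid marker level, centred over all arrays on the log2 scale, ran from 0.03 to 0.34 in female extreme, −0.21 to 0.31 in female minimal and 0.03 to 0.65 in female control rats, against −0.28 to 0.12, −0.50 to −0.02 and −0.60 to 0.20 in the same male groups. With that level as a covariate, 4 of 50 members (8%) and 10.4% of all probes passed. Of the members, Cdc20 (0.59, adjusted p = 0.0119) and Aurka (0.59, adjusted p = 0.0183) were higher in females, and Cdc37 (−0.28, adjusted p = 0.0126) and Ccnd1 (−0.39, adjusted p = 0.0291) lower, all in limma. The differences of Cdkn3 (−0.04), Ccnb2 (−0.03) and Ccndbp1 (−0.03) were then near 0 and of the other sign. Cdca8 (0.12), Cdk16 (0.23, limma adjusted p = 0.41) and Cdc25b did not pass either. In whole blood, more cells of a type and more RNA per cell cannot be told apart.

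**Figure D4:**
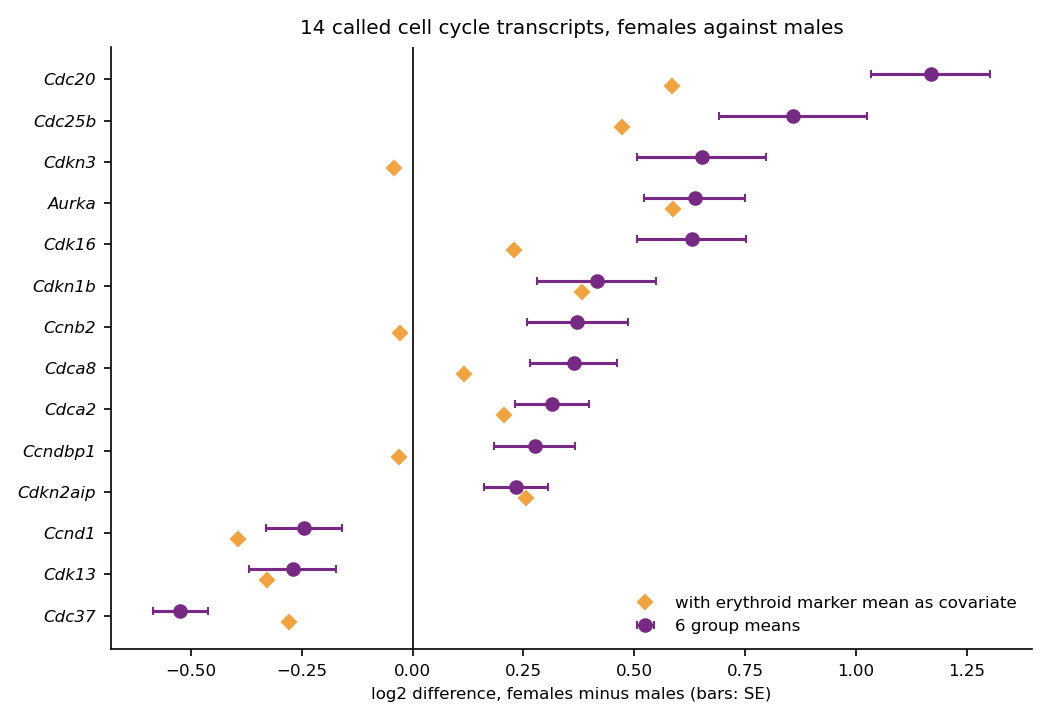
Log2 difference, females minus males (horizontal axis), of the 14 members that passed; circles with SE bars are from the model of 6 group means and diamonds from the same model with the mean erythroid marker level added. With the covariate Cdkn3, Ccnb2 and Ccndbp1 lie near 0, while Aurka stays at 0.59 and Cdc20 moves to 0.59.

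The members were next set against blood cell markers among rats of the same group, which leaves out sex and exposure. Slopes were fitted on the erythroid, B cell and neutrophil lists, and none on early reticulocyte, plasmablast or T cell markers. Among the 50 members 8 (16%) had a slope on the erythroid marker level, against 14.1% of all probes, and 6 of them had a positive slope, where 7.33% of all probes had one. The slope is the change in log2 level per log2 unit of the marker mean. Cdkl1 had a slope of 2.50 ± 0.36 (limma adjusted p = 3.69e-06), Cdkn3 of 1.87 ± 0.31 (adjusted p = 3.11e-05), Cdc20 of 1.57 ± 0.31 (adjusted p = 0.000268) and Ccnb2 of 1.08 ± 0.29 (adjusted p = 0.00724). Cdk16 (1.08 ± 0.32, adjusted p = 0.0157) and Ccndbp1 (0.82 ± 0.24, adjusted p = 0.0136) followed. The slopes of Cdkl1, Cdkn3, Cdc20 and Ccnb2 were past the threshold in 46 of 46 omissions of 1 array, while without the 4 female control arrays that stood apart Ccnb2 (0.87, adjusted p = 0.0899) and Ccndbp1 (0.75, adjusted p = 0.079) lost theirs in limma. Cdk16 lost its call without female control replicate 4 and Ccndbp1 also without male control replicate 6. Negative slopes were found for Cdc37 (−0.66 ± 0.15, adjusted p = 0.00134) and Cdk9, the kinase that releases paused RNA polymerase (−0.55 ± 0.18, adjusted p = 0.0274), and both turned positive, at 0.42 and 0.13, when arrays were scaled to their 75th percentile in place of quantile normalization. The 8 helicase and licensing probes had slopes of −0.34 to 0.41 and none passed. None of the 4 tested probes of mitotic kinases and the checkpoint passed. For the 6 members with a positive slope, within-group r (not tested) was lower with early reticulocyte and erythroblast markers than with erythroid markers. Both lists share genes. It was 0.55 against 0.73 for Cdkl1, 0.40 against 0.68 for Cdkn3, 0.47 against 0.62 for Cdc20 and 0.19 against 0.51 for Ccnb2. For Cdk16 it was 0.43 against 0.47 and for Ccndbp1 0.18 against 0.49. With plasmablast markers r of these 6 members ran from −0.21 to 0.14, and with T cell markers from −0.53 to −0.23. The 6 were picked by their slope on the erythroid list, so their higher r with that list was in part set in advance. Among members not picked, r went both ways. It was 0.62 with early against 0.33 with erythroid markers for Cdc25b, and −0.06 against 0.26 for Ccnd1. Which cells the transcripts came from was not tested.

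On the B cell marker level limma called 0 of 50 slopes (7 at an unadjusted p under 0.05, or 14%, against 16.9% of all probes), against 1.41% of all probes, and on the neutrophil marker level 0 of 50 (3 unadjusted, or 6%, against 12.7%), against 0.404%. The smallest p-values for B cell markers were those of Ccnb2 (−0.87 ± 0.30, adjusted p = 0.113), Mcm3 (0.76 ± 0.27, adjusted p = 0.122), Cdc26 (0.64 ± 0.26, adjusted p = 0.184), Cdkn3 (−0.85 ± 0.39, adjusted p = 0.257) and Cdkl1 (−1.05 ± 0.49, adjusted p = 0.262), and Cdc20 had −0.66 ± 0.37 (adjusted p = 0.362). For neutrophil markers they were those of Ccndbp1 (−0.56 ± 0.20, adjusted p = 0.188), Cdk9 (−0.35 ± 0.15, adjusted p = 0.291), Cdk4, the kinase of D-type cyclins (0.37 ± 0.18, adjusted p = 0.36), Cdca7 (−0.47 ± 0.26, adjusted p = 0.451) and Cdca4 (0.48 ± 0.27, adjusted p = 0.457), with Cdc20 at −0.31 ± 0.30 (adjusted p = 0.722). Under scaling to the 75th percentile 26 and 13 members were called in these fits, along with 4829 and 2725 of all 9416 probes, and the median slope of all probes was then 0.19 and 0.16. Of 8 windows of the 6 members with a positive erythroid slope, counting both overlapping Cdkn3 windows and both of Cdk16, 5 (62.5%) held a CHR. The share was 27.0% over all member windows and 19.7% over all windows. A CCAAT box was in 7 (87.5%), against 51.4% of member windows and 37.5% of all. These members were picked by their slopes in the same data, so the shares are a description and no test. A GATA site (AGATAA, with AGATAG, with TGATAA and with TGATAG as its other forms, searched on both strands and chosen after the slopes were seen) was in 2 of the 8 (25%), against 30.3% of all windows.

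**Figure D5:**
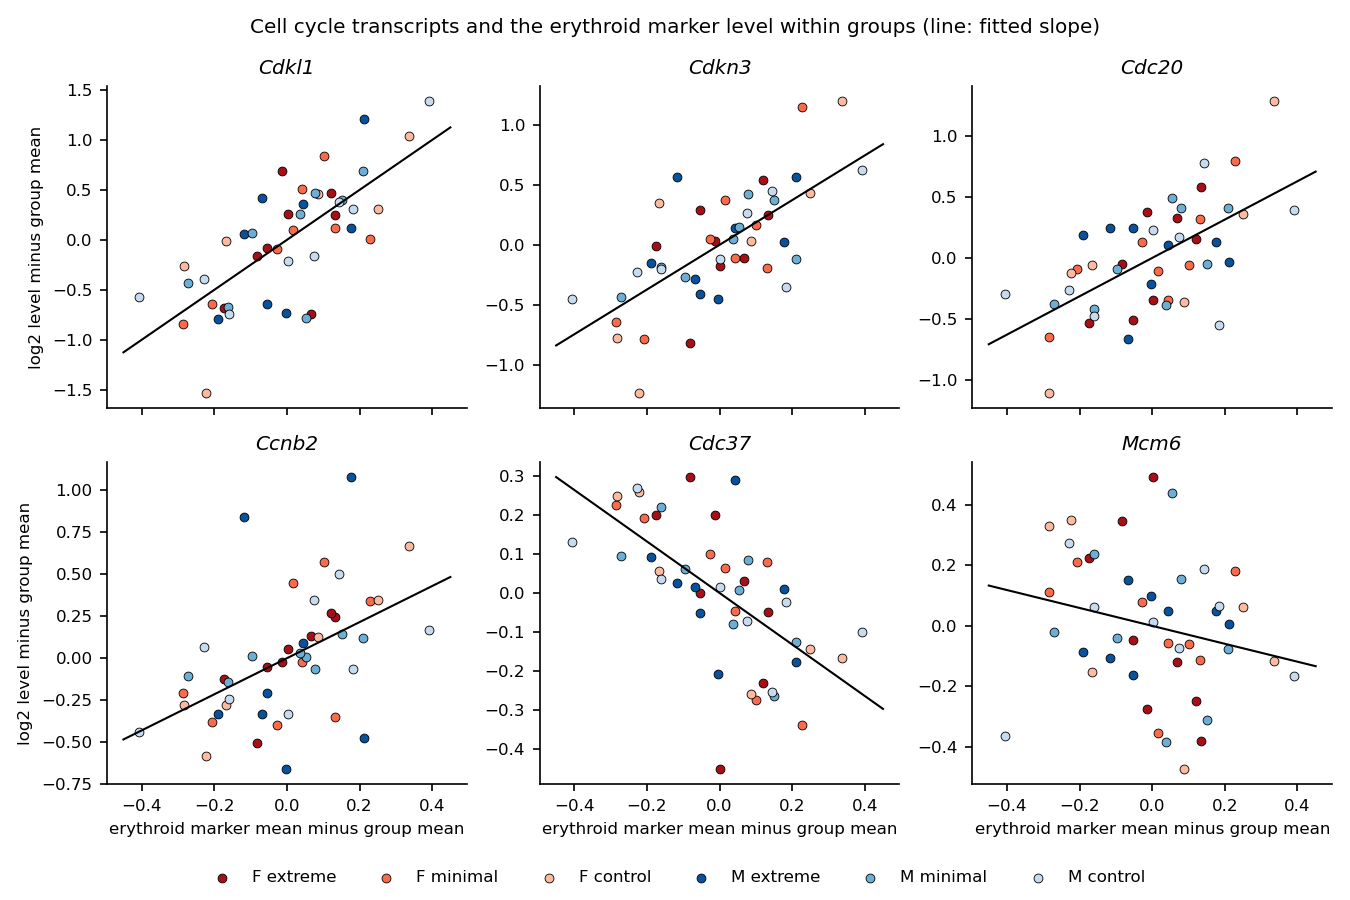
Log2 level of 6 members (vertical axes) against the mean erythroid marker level (horizontal axes), each as the deviation from the mean of its group, for 46 rats coloured by sex (F, M) and group; lines are the fitted slopes. Cdkl1, Cdkn3, Cdc20 and Ccnb2 climb with the markers, Cdc37 falls under quantile normalization but not under 75th percentile scaling, and the Mcm6 slope did not pass.

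Cdc20 was compared with 12 other division genes across the 46 rats, on deviations from group means, as 1 family of relations with permutation p-values adjusted over the 12. It went with Cdkn3 (Pearson r = 0.62, permutation adjusted p = 0.00024, Spearman rho = 0.57, adjusted p = 0.00048), Cdca8 (r = 0.46, permutation adjusted p = 0.0084, rho = 0.53, adjusted p = 0.00162) and Ccnb2 (r = 0.44, permutation adjusted p = 0.0101, rho = 0.41, adjusted p = 0.0186). Without the 2 rats farthest from the median of Cdc20 these r were 0.50, 0.32 and 0.36. Within 22 females they were 0.63, 0.42 and 0.48, and within 24 males 0.59, 0.64 and 0.42. With Aurka r was 0.53 in females and −0.36 in males (pooled r = 0.23, permutation adjusted p = 0.331). With the 6 helicase genes r ran from −0.17 for Mcm6 to 0.22 for Mcm5, and none passed, nor did Aurkb (r = −0.02) or Cdc6 (r = 0.20), which loads the helicase at origins. All arrays share 1 normalization, which can add to any such correlation. The deviations were also not adjusted for the erythroid marker level. Within groups Cdc20 (r = 0.62), Cdkn3 (0.68), Ccnb2 (0.51) and Cdca8 (0.37) each went with that level, and its part in these relations was not tested. Cdk16, outside the 12, had an r of 0.45 with Cdc20.

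No helicase or licensing gene passed in any comparison of groups. Mcm6 ran from 7.18 through 7.47 to 8.05 in extreme response, from 7.22 through 7.59 to 7.79 in minimal response and from 6.82 through 7.26 to 7.64 in control females, and from 7.51 through 7.69 to 7.82, 7.17 through 7.52 to 7.99 and 7.27 through 7.67 to 7.90 in the same male groups. Mcm7 had medians of 7.30, 7.29 and 7.15 in extreme response, minimal response and control females and of 7.32, 7.23 and 7.51 in the same male groups. Mcm2 had medians of 6.71, 6.62 and 6.47 in these female groups and of 6.71, 6.6 and 6.46 in the male ones. The ranges overlapped in each case. Mcm3 had its lowest group median in extreme response females, at 4.66, 5.31 and 5.96, against 5.52, 5.85 and 6.14 in control females, a difference that did not pass, as given above. Mcm4 was detected on 27 arrays, and its medians lay between 4.79 and 5.19. The 2 Mcm5 probes were detected on 44 and 22 arrays and neither passed between females and males. Aurkb, the Aurora kinase of the chromosomal passenger complex, was detected on 31 arrays, and its group medians lay between 4.93 and 5.21. Within groups the SD of single members ran from 0.19 to 0.64 (median 0.29), with the widest spread in Cdkl1.

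Other genes of division, outside the symbols used here, came from 2 lists. Without the 4 female control arrays that stood apart, none of the calls given below for exposed females or for the difference between the sexes in exposure was kept. As above, only replicates 6 and 7 then remained as female controls. Of 38 tested proliferation genes (60 on the array), 0 rose and 1 fell in exposed against control females (2.63%, against 6.36% of all probes), and 2 rose and 0 fell in exposed against control males (5.26%, against 11.2%). Atad2, a chromatin ATPase, was the gene called in females (−0.55 ± 0.16, limma adjusted p = 0.0252), and without those arrays it gave −0.49 (adjusted p = 0.935). In the difference between the sexes for exposure 0 were higher and 3 lower (7.89%, against 11.4%): Dnmt1 (−0.82 ± 0.18), Atad2 (−0.75 ± 0.22) and the nuclear lamina gene Tmpo (−0.995 ± 0.28), with limma adjusted p of 0.0177 or less. Without those arrays they gave −0.42 (adjusted p = 0.527), −0.69 (adjusted p = 0.431) and −0.50 (adjusted p = 0.68) in limma. In males Dnmt1, the maintenance DNA methyltransferase, rose by 0.50 ± 0.12 (limma adjusted p = 0.00533), and Pcna, the sliding clamp of DNA polymerase, by 0.57 ± 0.14 (limma adjusted p = 0.00575). Between the sexes 12 of the 38 were higher and 5 lower in females (44.7% called, against 34.1% of all probes). Without those arrays 10 of the 38 were called, where 22.7% of all probes were. The smallest p in the main fit was that of the histone chaperone gene Asf1b (0.99 ± 0.13, limma adjusted p = 3.55e-08). It was followed by Dnmt1 (0.54 ± 0.08, adjusted p = 9.3e-07), Dlgap5, a spindle protein gene (0.76 ± 0.12, adjusted p = 2.19e-06), and the clamp loader gene Rfc3 (−0.38 ± 0.07, adjusted p = 1.09e-05). On the erythroid level 6 of the 38 had a positive and 1 a negative slope (18.4%, against 14.1% of all probes), among the positive ones Dlgap5 (1.54 ± 0.26), the ribonucleotide reductase gene Rrm2 (1.69 ± 0.31) and the spindle factor gene Tpx2 (1.41 ± 0.29), with limma adjusted p of 0.000503 or less.

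Of 48 tested regulators of the cycle in the second list, 6 rose and 1 fell in exposed against control males (14.6%, against 11.2% of all probes), and 0 rose and 2 fell in females (4.17%, against 6.36%). Those with the smallest p in males were Rbl2, a retinoblastoma family member that holds cells in quiescence (0.80 ± 0.15, limma adjusted p = 0.000686), the cohesin gene Rad21 (1.07 ± 0.22, adjusted p = 0.00201), the stress-induced growth arrest gene Gadd45a (0.72 ± 0.15, adjusted p = 0.00239) and the antiproliferative gene Btg1 (0.77 ± 0.18, adjusted p = 0.00462). In minimal response against control males 12 rose and 1 fell (27.1%, against 14.8% of all probes). The smallest p there were those of Rbl2 (1.15 ± 0.17), Rad21 (1.49 ± 0.26), Btg1 (1.03 ± 0.21) and Ccng2, an atypical cyclin of arrested cells (1.06 ± 0.23), with limma adjusted p of 0.00167 or less. In females the cyclin Y gene Ccny (−0.46 ± 0.13, adjusted p = 0.0217) and the splicing cyclin gene Ccnl2 (−0.81 ± 0.24, adjusted p = 0.0337) were the genes called in limma, and without the 4 arrays they gave −0.45 (adjusted p = 0.853) and −0.034 (adjusted p = 0.997). For the difference between the sexes in exposure 1 was higher and 9 lower (20.8%, against 11.4% of all probes), with Rbl2 at −1.16 ± 0.22 (limma adjusted p = 0.000629), and 0 of these 10 passed without the 4 arrays, where Rbl2 gave −0.94 (adjusted p = 0.263). In extreme against minimal responders of both sexes Cul1, a ubiquitin ligase scaffold gene, fell (−0.42 ± 0.11, limma adjusted p = 0.0339), and Lin37, a DREAM complex subunit gene (0.46 ± 0.12, adjusted p = 0.036), and Btrc (0.53 ± 0.14, adjusted p = 0.039) rose, 6.25% of the list against 1.91% of all probes. Females against males called 24 of the 48 (50%, against 34.1% of all probes). Without the 4 arrays 14 were called, 11 higher and 3 lower in females, where 22.7% of all probes were. The smallest p in the main fit were those of Btrc (0.99, limma adjusted p = 8.45e-09), Mxd1 (0.86, adjusted p = 2.17e-08), Myc (0.80, adjusted p = 6.74e-07) and Foxo3 (0.89, adjusted p = 1.58e-06). All were higher in females and kept their calls without the 4 arrays. On the erythroid level 10 of the 48 had a slope that passed (20.8%, against 14.1%). Without the 4 arrays 7 of the 48 did, Fzr1, Btrc, Mxd1 and Foxo3 among them, and 9.56% of all probes did. Fzr1, which activates the anaphase-promoting complex after mitosis as Cdc20 does within it, had an erythroid slope of 1.55 ± 0.18 (limma adjusted p = 1.09e-07), the ubiquitin ligase subunit gene Btrc one of 1.79 ± 0.21 (adjusted p = 1.4e-07), the Myc antagonist gene Mxd1 one of 1.502 ± 0.21 (adjusted p = 2.35e-06) and the forkhead factor gene Foxo3 one of 1.92 ± 0.28 (adjusted p = 4.17e-06).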

How the data were processed

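RNA of 47 rats was measured on an Illumina rat bead array. The authors deposited a raw intensity and a detection p-value for each of 22523 probes, and a table of log2 values, per the file headers. The deposited log2 values equalled quantile-normalized log2 intensities, and no background correction or scanner software is given in the sources used here. Here intensities were background-corrected with limma's nec (normexp, offset 16), quantile normalized and log2 transformed on 46 arrays (R 4.3.3, limma 3.58.1). Probes with a detection p-value below 0.05 on at least 7 arrays were tested in a model of 6 group means with 40 residual degrees of freedom and Benjamini-Hochberg adjustment over 9416 probes, at a threshold of 0.05. Slopes on marker means were fitted with the group means kept. Array number and signal over background limit the precision, and p-values measure the spread between rats. The calculations were tested on simulated data.

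Symbols came from the platform annotation (13793 probes with 1 symbol, 0 with several, 8730 with none), and all 87 members matched RefSeq by Entrez identifier. Every probe of a symbol was kept. The text names, per comparison, all called members or, where under 5 were called, those with the 5 smallest p, and Cdc20 in each. From the lists of proliferation genes and other regulators it names at most 4 called genes per comparison. Members, lists and tests were chosen with earlier results of these data known. Alternatives covered all 47 arrays, the detection filter, the offset, 75th percentile scaling, the deposited values, array weights, separate fits of each sex, array brightness, a replicate block and omission of each array. Omission of 4 female control arrays, for members and the lists, and the erythroid covariate were chosen after seeing the data. Replicate numbers name rats only: deviations of same-numbered rats had a median correlation of −0.0164 over 110 pairs.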

Additional observations from a re-analysis of the deposited data

Results flagged for a closer look

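Of 174 pairs of a group and a probe examined for a value far from the others of its group (29 probes), 11 stood apart, and chance gives about 1 in 20. In males the Cdc25b level of extreme response replicate 6 was 9.19, with the next at 12.14, and Cdk16 in control replicate 4 was lowest at 4.99. In minimal response males Aurka was lowest in replicate 8 at 4.64, Mcm7 highest in replicate 8 at 7.65 and Ccnd1 highest in replicate 7 at 5.68. In females Ccndbp1 was lowest in extreme response replicate 5 at 11.6 and Cdkn2aip highest in extreme response replicate 2 at 5.76. In minimal response females Cdk16 was lowest in replicate 8 at 5.52 and 1 Mcm5 probe highest in replicate 7 at 5.57. In control females Cdca8 was highest in replicate 4 at 7.25 and Cdk13 highest in replicate 1 at 7.26.

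The difference between exposed and control rats differed between females and males for 3 members by a test of the difference itself in limma: Ccndbp1 (−0.77), Cdkn1b (−0.87) and Aurkaip1 (0.65). Without female control replicates 1, 3, 4 and 5 none of the 3 passed, and neither did any of the 9416 probes. This omission left replicates 6 and 7 as the only female controls.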

How the results depend on the processing

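Counts of members called depended on the setting wherever few were called. The share of all probes called moved with the setting too. A count with no such share beside it is therefore no result about the members. For exposed against control females (1 called) the count was 2 with all 47 arrays and 0 with the deposited log2 values, array weights, each sex fitted by itself, array brightness, the erythroid covariate or without 4 female controls. It was 1 for minimal response females under 75th percentile scaling and 2 for extreme response females with array brightness (0 called in each). For exposed males (2) it was 0 with all 47 arrays, no detection filter, 75th percentile scaling or each sex by itself, and 5 with array weights. For minimal response males (4) it was 1, 2, 11 and 7 with all 47 arrays, 75th percentile scaling, array weights and the erythroid covariate. With that covariate 16.3% of all probes passed there, against 14% of members. For the difference between the sexes in exposure (3) it was 1 with no filter, 75th percentile scaling or array weights and 0 without 4 female controls. For extreme against minimal response in both sexes (1) it was 0 with all 47 arrays, no filter, 75th percentile scaling or the erythroid covariate, and 2 with a filter of 23 arrays, array weights or without 4 female controls. For females against males (14) it was 9 without 4 female controls (22.7% of all probes) and 4 with the erythroid covariate (10.4% of all probes). For slopes it was 32 with all 47 arrays (erythroid, 8), and 26 (B cell, 0) and 13 (neutrophil, 0) under 75th percentile scaling. The replicate block gave 1 for the difference between the sexes in exposure, 1 for exposure averaged over the sexes (0) and 0 for extreme against minimal response in both sexes. Omission of 1 array gave counts of 0 to 1 in exposed, minimal and extreme response females, extreme response males, averaged exposure and the B cell and neutrophil slopes, 1 to 5 in exposed males, 3 to 7 in minimal response males, 1 to 4 for the difference between the sexes, 0 to 2 for averaged extreme against minimal response, 14 to 17 for females against males and 7 to 9 for the erythroid slope. The causes were not tested.

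Signs changed as follows. Cdc20 in exposed females gave 0.39 with all 47 arrays, 0.13 under 75th percentile scaling, 0.35 without 4 female controls and 0.037 with the erythroid covariate. In minimal response females it gave 0.23, 0.065 and 0.18 in the first 3 of these, and in extreme response females 0.56, 0.19, 0.52 and 0.11, and 0.013 with array brightness. In extreme response males it gave 0.051 and 0.011 under 75th percentile scaling and array brightness. For the difference between the sexes Cdc20 gave 0.54, 0.26, 0.50 and 0.23 in exposure (0.005 with array brightness), and −0.24 and −0.006 in extreme against minimal response under 75th percentile scaling and array brightness. Averaged over the sexes, exposure gave 0.12 with all 47 arrays and 0.10 without 4 female controls. Its B cell slope was 0.22 under 75th percentile scaling, and its neutrophil slope 0.46 with all 47 arrays, 0.20 under 75th percentile scaling and 0.058 without 4 female controls. Omissions of 1 array gave Cdc20 values of −0.45 to 0.024 in exposed females, −0.288 to 0.19 in extreme response females, −0.101 to 0.088 in extreme response males, and for the difference between the sexes −0.31 to 0.17 in exposure and −0.007 to 0.20 in extreme against minimal response. Ccndbp1 gave 0.32 for the difference between the sexes in exposure and −0.087 for females against males with all 47 arrays. With the erythroid covariate females against males gave −0.03 for Ccndbp1, −0.029 for Ccnb2 and −0.042 for Cdkn3. The erythroid slopes of Cdk9 and Cdc37 were 0.54 and 0.83 with all 47 arrays and 0.13 and 0.42 under 75th percentile scaling.

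Dim probes such as Cdk1, Cdca2, Cdkn2aip and Cdc37l1 lay near background on most arrays, which limits what their differences show. Cdkn1c did so on most arrays of exposed females, Ccnd1 on part of the female arrays and Cdk16 on part of the minimal response male arrays. The array without usable signal enters only the setting with all 47 arrays.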
